A study of Mus musculus with 7 samples.

Results

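The genes described here make, clear and carry retinoic acid, the active derivative of vitamin A. They are Adh1, Rdh10, Dhrs3, Aldh1a1, Aldh1a2, Aldh1a3, Cyp26a1, Cyp26b1, Crabp1 and Crabp2. A probe was taken when it was not a control spot and the array files gave it one of these names. All 10 genes were found, among 26870 genes on the array, and each had 1 probe printed as 1 spot.

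The cells came from C57BL6J mouse embryos that carried an Osr1-GFP knock-in, in which green fluorescent protein (GFP) reports Osr1, a transcription factor of intermediate and lateral plate mesoderm. The knock-in was shared by all 7 populations, the GFP-negative ones included, and how many copies an embryo carried was not given in the labels. At embryonic day E8.5, cells with and without GFP were sorted from the embryo as a whole. At E9.5 the caudal part of the embryo gave 3 populations. The gated cells were GFP-positive, carried the integrin Itga8 and lacked the receptor Pdgfra, the others were the remaining GFP-positive cells, and the last were GFP-negative cells. At E11.5 the metanephric mesenchyme, from which nephrons and renal stroma form, gave gated cells by the same surface markers and the remaining GFP-positive cells. The study used the gate to enrich nephron progenitors and set them against the mesenchyme around them. Each population had 1 single-colour array made from 10 ng of RNA that was amplified before labelling, so no spread between embryos or sorts could be measured and no test was run. How many embryos went into a sort was not given in the labels.

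Retinoic acid is made in 2 oxidation steps, from retinol to retinaldehyde and from retinaldehyde to the acid. Adh1 and Rdh10 can carry out the first step, Dhrs3 runs it backwards, and the Aldh1a enzymes carry out the second. Cyp26 enzymes oxidise retinoic acid further and so remove it, and the Crabp proteins bind it in the cytoplasm. In embryos the acid is made in trunk mesoderm by Aldh1a2 and removed in the tail bud by Cyp26a1. In the developing kidney it is made largely in the stroma and acts on neighbouring cells through nuclear receptors.

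What the array measured is shown by the probes of 3 genes on which the comparisons turn, Adh1 and Crabp1 for the gate and Cyp26a1 for the GFP-negative cells. Each is 60 bases long, is printed as the array files give it and lies on a transcript of its gene. Each can be read without a stop codon in at least 1 frame, as can the probes of Rdh10, Dhrs3, Aldh1a3 and Crabp2. No base is capitalised.
Adh1: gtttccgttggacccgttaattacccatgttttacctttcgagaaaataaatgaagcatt
Cyp26a1: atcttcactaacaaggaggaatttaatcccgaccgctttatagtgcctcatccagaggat
Crabp1: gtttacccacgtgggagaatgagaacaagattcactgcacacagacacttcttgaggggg
In the mm9 coordinates of the array the Adh1 probe lies at chr3:137952821-137952880 on the plus strand, the Cyp26a1 probe at chr19:37775566-37775625 on the plus strand and the Crabp1 probe at chr9:54616192-54616251 on the plus strand. The probes of the other genes are at chr1:16122062-16122121 (Rdh10, plus), chr4:144517485-144517544 (Dhrs3, plus), chr19:20717764-20717823 (Aldh1a1, plus), chr9:71143931-71143990 (Aldh1a2, plus), chr7:73535785-73535844 (Aldh1a3, minus), chr6:84521952-84522011 (Cyp26b1, minus) and chr3:87757207-87757266 (Crabp2, plus). Whether any of the 10 probes lies in coding sequence or in a UTR was not assigned here.

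A promoter is shown for 1 gene, because it alone, of the members with a promoter window, held the motif searched for. Retinoic acid receptors are known to bind pairs of short half-sites in the same orientation, and Cyp26a1 is known to be switched on by the acid through such pairs. The usual half-site AGGTCA was searched together with its known variants, one of them AGTTCA, another GGGTCA and the last GGTTCA, as direct repeats (any pairing of these forms) with 5, 2 or 1 bases between them, on both strands, in the RefSeq windows of GRCm38.p6 that run 250 bases before a start to 50 after it. Adh1, Dhrs3, Aldh1a1, Aldh1a2, Cyp26a1, Cyp26b1 and Crabp1, 7 of the 10, had such a window. The stretch below precedes the start of Cyp26a1 at chr19:37697736-37697807 on the plus strand of GRCm38.p6, and the capitals mark both half-sites, which read AGTTCA on the other strand.
Cyp26a1 promoter: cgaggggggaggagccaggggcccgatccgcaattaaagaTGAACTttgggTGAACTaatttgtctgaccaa
The repeat has 5 bases between its half-sites and begins 32 bases upstream of the start. Of 27025 genes with a window, 31 (0.115%) held such a repeat, and Cyp26a1 was 1 of them. Repeats with 2 and 1 bases between the half-sites were in the windows of 84 genes (0.311%) and 71 genes (0.263%), none of them a member. A match describes these letters and does not show that a receptor binds there.

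A level is the log2 of a spot's signal relative to the 75th percentile of its array, so 0 lies at that percentile. Levels of the same gene can be compared between populations, whereas levels of different genes cannot, because each probe has its own response. The share of spots well above background ran from 56.2% on the E8.5 GFP-negative array to 84.1% on the array of other GFP-positive cells of E9.5, and lay between 70.3% and 74.0% on the remaining 5. Where the dimmer of 2 arrays was not well above background, it was set at the higher of its own level and the lowest level well above background on its array, and the fold is given as "at least". The 399 probes printed 10 times on each array had a median SD of 0.107 within an array, or 0.151 for a difference between 2 arrays, which covers spot noise alone. The E9.5 arrays of gated and of GFP-negative cells shared a slide and the other 5 arrays shared another, so the comparisons of E9.5 gated with other cells, of E9.5 other with GFP-negative cells and of gated cells between stages ran across slides. Slide and population cannot be told apart there. Osr1, whose reporter was sorted, stood at 0.85 in GFP-positive cells of E8.5, 1.04 and -0.08 in gated and other cells of E9.5 and 1.63 in gated cells of E11.5, was dim (not well above background) in both GFP-negative populations, and was lower, at -1.79, in the other GFP-positive cells of E11.5. Six2, the nephron progenitor factor, was at 1.17 in the gated and -2.62 in the other cells of E9.5, and at 4.10 against -3.58 at E11.5.

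Some genes of the pathway differed across the gate, in both directions. At E9.5, 4 of the 10 lay within 2-fold, and at E11.5, 5 of the 8 measured. Crabp1 alone was past 2-fold on the same side at both stages. Rdh10, higher in the gate by 4.63-fold at E9.5 and 1.99-fold at E11.5, missed the second cutoff by less than spot noise. The retinol oxidisers Adh1 and Rdh10 were highest in the gated cells, while the binding protein Crabp1, and at E11.5 also Dhrs3 and the acid-making enzyme Aldh1a2, were highest in the GFP-positive cells outside it. Cyp26a1, which clears the acid, was highest in E8.5 cells and in GFP-negative cells of E9.5 and was dimmest at E11.5. Of the genes measured on all 7 arrays, Aldh1a2 differed least between populations, by 3.58-fold, and Crabp2 by 4.34-fold. In sorted populations such as these, fewer cells of a type and less RNA of a gene per cell cannot be told apart.

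**Figure D1:**
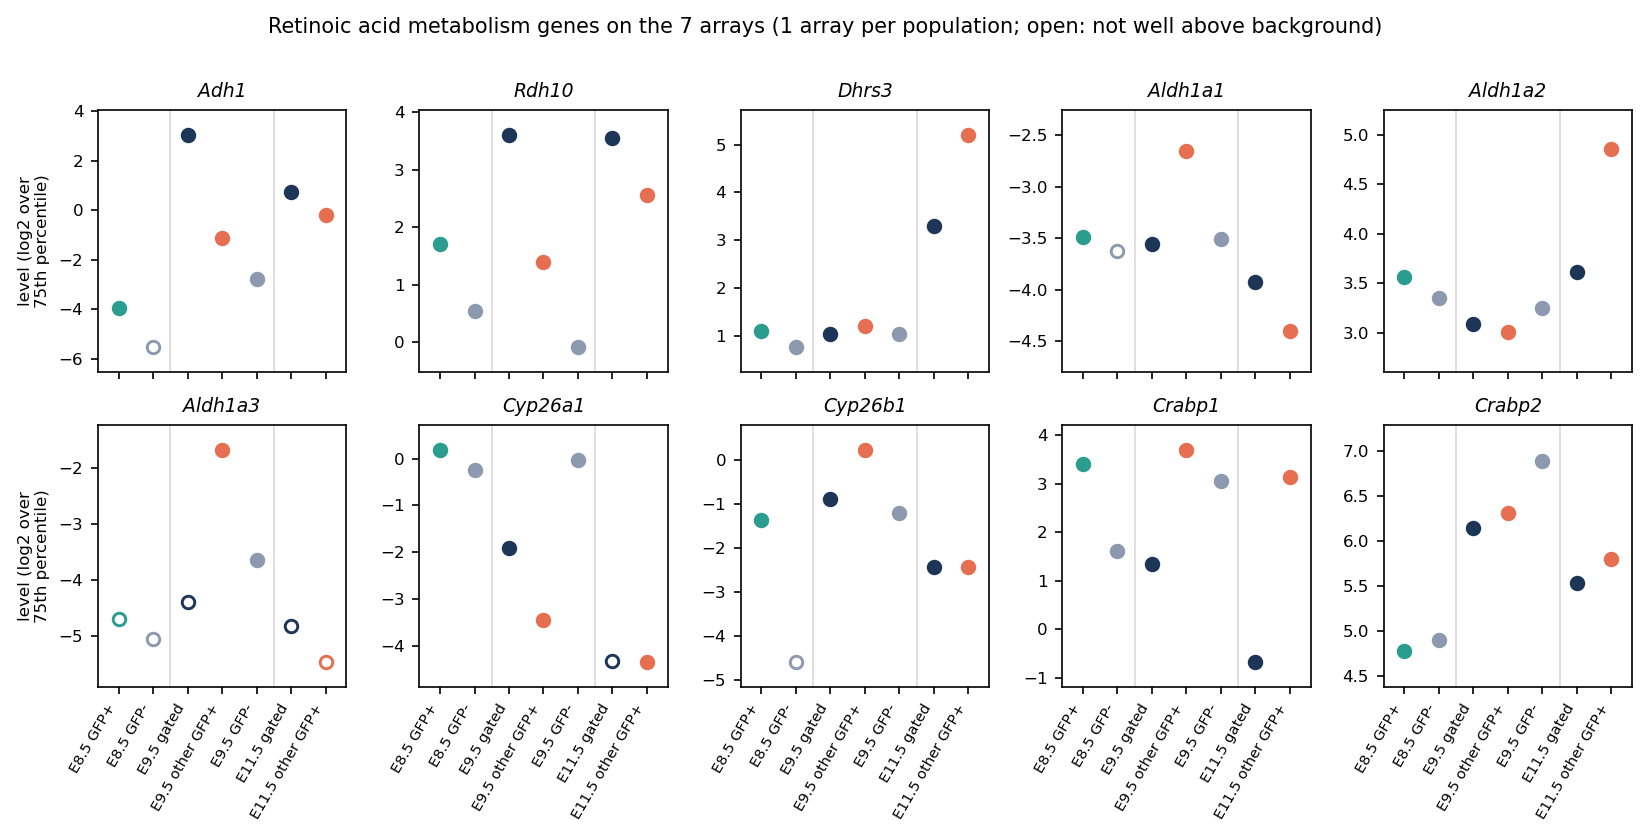
Level of each of the 10 genes (log2 over the 75th percentile of the array) in the 7 populations, 1 point per array, with its own vertical scale per gene and open points for spots not well above background. Adh1 ran from an open point at -5.51 in E8.5 GFP-negative cells to 3.03 in E9.5 gated cells, and Dhrs3 stood between 0.77 and 1.20 on the 5 earlier arrays and at 3.29 and 5.20 at E11.5.

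Adh1, a cytosolic alcohol dehydrogenase that can oxidise retinol, varied more between populations than any other of these genes, over at least 124.1-fold. Its level was -3.93 in GFP-positive and -5.51 (not well above background) in GFP-negative cells of E8.5, 3.03, -1.12 and -2.78 in the gated, other and GFP-negative E9.5 cells, and 0.73 and -0.20 in gated and other cells of E11.5. The gated cells of E9.5 stood 2.30 above the next population, which was the gate of E11.5, and the E8.5 cells lay at the bottom. Within E9.5 the gated cells were 17.8-fold above the other GFP-positive cells and 56.1-fold above the GFP-negative cells. Only 12 of 23363 measured genes, Adh1 included, were as far on the gated side in the first of these and 5 of 21294 in the second. At E11.5 the gate was 1.90-fold above the other cells.

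Rdh10 is the membrane-bound retinol dehydrogenase that supplies most retinaldehyde in mid-gestation embryos. It was at 1.71 and 0.55 in E8.5 cells with and without GFP, at 3.60, 1.39 and -0.08 in the gated, other and GFP-negative E9.5 cells, and at 3.55 and 2.55 in gated and other cells of E11.5. Both gated populations were on top and differed by 0.05, less than spot noise, and in each stage with a GFP-negative population that one was lowest. The gated cells of E9.5 were 4.63-fold above the other GFP-positive cells and 12.8-fold above the GFP-negative cells. At E11.5 the gated cells were 1.99-fold above the other cells.

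Dhrs3 returns retinaldehyde to retinol, and its gene is known to be induced by retinoic acid. Its levels were 1.10, 0.77, 1.04, 1.20 and 1.04 on the E8.5 GFP-positive, E8.5 GFP-negative, E9.5 gated, E9.5 other and E9.5 GFP-negative arrays. They were 3.29 in the gated and 5.20 in the other cells of E11.5. The E11.5 arrays thus stood above all earlier ones, and neighbours in the order of the E8.5 GFP-positive and the E9.5 arrays lay within spot noise of each other. Dhrs3 was 4.75-fold higher at E11.5 than at E9.5 in gated cells and 16.04-fold higher in the other GFP-positive cells. At E11.5 it was 3.77-fold lower in the gate than outside it.

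Aldh1a2, the main enzyme that makes retinoic acid in early mesoderm, was well above background everywhere. It was at 3.56 and 3.36 in E8.5 cells with and without GFP, at 3.09, 3.01 and 3.25 in the gated, other and GFP-negative E9.5 cells, and at 3.62 and 4.85 in gated and other cells of E11.5. The other GFP-positive cells of E11.5 stood apart on the high side, and the remaining 6 arrays lay between 3.01 and 3.62. In that order, the E11.5 gate and E8.5 GFP-positive cells lay within spot noise of each other, as did the E8.5 and E9.5 GFP-negative cells and the gated and other cells of E9.5. In the GFP-positive cells outside the gate Aldh1a2 was 3.58-fold higher at E11.5 than at E9.5, and at E11.5 the gate was 2.35-fold below them.

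Aldh1a3, an enzyme of the same family known from the eye and other epithelia, was well above background on 2 arrays. These were the other GFP-positive cells of E9.5, at -1.69, and the GFP-negative cells of E9.5, at -3.65. The dim arrays were at -4.69 and -5.05 in E8.5 cells with and without GFP, at -4.40 in the E9.5 gate, and at -4.81 and -5.45 in gated and other cells of E11.5. The other GFP-positive cells of E9.5 were at least 6.53-fold above the gate and 3.89-fold above the GFP-negative cells. With another background correction (normexp, here with 50 added to each signal) these log2 differences, -2.71 and 1.96, became -1.02 and 0.90. The latter was then no longer past 2-fold. Their array also had the most spots above background, 84.1%. It held markers of surface ectoderm too: 7 of 7 were well above background there, as in GFP-negative cells, against 4 to 6 on the other arrays. Against GFP-negative cells, 1 of the 7 was past 2-fold and higher in these cells, 1 lower and 5 within, beside 8.65% and 5.17% of genes. In the E9.5 gate, 4 of the 7 were past 2-fold and lower than in these cells, beside 9.4% of genes. None of the 7 was past 2-fold and higher in that gate, beside 5.14% of genes. The summed signal of that list ran from 61.7 to 81.1 times the 75th percentile over the 7 arrays, was 77.2 in these cells and was dominated by Trp63, which lay between 5.88 and 6.32 on every array. The part of such cells in the result was not tested.

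Aldh1a1, known from the dorsal eye and the adult liver, lay below the 75th percentile throughout and was well above background on 6 of 7 arrays. Its levels were -3.49 and -3.63 (not well above background) in E8.5 cells with and without GFP, -3.55, -2.66 and -3.51 in the gated, other and GFP-negative E9.5 cells, and -3.93 and -4.40 in gated and other cells of E11.5. The other GFP-positive cells were highest at E9.5 and lowest at E11.5, and the E8.5 arrays, the E9.5 gate and the E9.5 GFP-negative cells lay within spot noise of their neighbours. In the other GFP-positive cells it was 3.34-fold lower at E11.5 than at E9.5, a log2 difference of -1.74 that became -0.60 with normexp and -1.15 with quantile normalization.

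Cyp26a1 clears retinoic acid in the tail bud and the front of the early embryo. It was at 0.18 and -0.25 in E8.5 cells with and without GFP, at -1.91, -3.44 and -0.03 in the gated, other and GFP-negative E9.5 cells, and at -4.31 (not well above background) and -4.33 in gated and other cells of E11.5. The 3 high arrays lay within 0.43 of each other, the gate of E9.5 was next and the E11.5 arrays were dimmest. At E9.5 the GFP-negative cells were 3.67-fold above the gated cells and 10.65-fold above the other GFP-positive cells, the latter a log2 difference of -3.41 that became -1.92 with normexp. The gated cells were 2.90-fold above the other GFP-positive cells, and that log2 difference of 1.54 became 0.65 with normexp. From E9.5 to E11.5 the gate was at least 5.29-fold lower, and this log2 difference of -2.40 became -0.81 with normexp.

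Cyp26b1, the clearing enzyme of limb, hindbrain and gonad, was at -1.36 in GFP-positive and -4.59 (not well above background) in GFP-negative cells of E8.5. It was at -0.88, 0.23 and -1.21 in the gated, other and GFP-negative E9.5 cells, and at -2.42 and -2.44 in gated and other cells of E11.5. The other GFP-positive cells of E9.5 were highest, and both E11.5 arrays were alike within spot noise and lay below all others but the E8.5 GFP-negative cells. The order differed from that of Cyp26a1, which was dimmer in the other GFP-positive cells of E9.5 than in the remaining E8.5 and E9.5 populations. In the GFP-positive cells outside the gate Cyp26b1 was 6.35-fold lower at E11.5 than at E9.5, a log2 difference of -2.67 that became -1.78 with normexp.

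Crabp1 binds retinoic acid in the cytoplasm and is known from neural crest and embryonic mesenchyme. It was at 3.41 and 1.62 in E8.5 cells with and without GFP, at 1.36, 3.70 and 3.05 in the gated, other and GFP-negative E9.5 cells, and at -0.67 and 3.14 in gated and other cells of E11.5. Both gated populations were below every other one, and the gate of E11.5 was lowest by 2.02. The gated cells were 5.07-fold below the cells outside the gate at E9.5 and further below them at E11.5, by a log2 difference of -3.81 (-2.34 at E9.5). From E9.5 to E11.5 Crabp1 was 4.06-fold lower in the gate, while the other GFP-positive cells of both stages differed by 1.47-fold.

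Crabp2, which carries the acid to its nuclear receptors, was at 4.77 and 4.90 in E8.5 cells with and without GFP, at 6.14, 6.31 and 6.89 in the gated, other and GFP-negative E9.5 cells, and at 5.54 and 5.80 in gated and other cells of E11.5. The E9.5 populations were above those of E11.5, and those above the E8.5 cells, which lay within spot noise of each other. No comparison within a stage, or within gated or other cells between E9.5 and E11.5, reached 2-fold. Its counterpart Crabp1 was on the low side in gated cells, whereas Crabp2 differed across the gate by 1.13-fold at E9.5 and 1.20-fold at E11.5.

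At E9.5 some of the 10 genes lay past 2-fold on each side of the gate. All 10 were measured. Those past 2-fold and higher in the gate were Adh1, Rdh10 and Cyp26a1, 3 of 10 beside 5.14% of the 23363 measured genes. Those lower were Aldh1a3, Crabp1 and Cyp26b1, again 3 of 10 beside 9.4% of genes. The median log2 difference was -0.17 over the 10 genes and -0.15 over all measured genes. Past 4-fold were Adh1 and Rdh10 on the higher side, with 0.852% of genes, and Aldh1a3 and Crabp1 on the lower, with 1.19%. With quantile normalization the split over all genes turned from 1202 higher and 2197 lower to 1933 and 1708, whereas each of these 6 genes stayed past 2-fold. With normexp Cyp26b1 went from -1.11 to -0.80 and Cyp26a1 from 1.54 to 0.65, which left 4 of the 6 past 2-fold. Over all 23014 genes measured in that setting, 346 were past 2-fold and higher and 321 lower, also fewer than in the main setting.

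At E11.5 the gate again held less Crabp1, and Dhrs3 and Aldh1a2 joined it. Of the 8 genes measured, these 3 were past 2-fold and lower in the gate, beside 9.44% of 21463 measured genes. None was past 2-fold and higher, beside 10.5% of genes. With no replicate these counts carry no p. Rdh10 and Adh1 lay just under 2-fold on the gated side, at log2 differences of 0.995 and 0.93. Crabp1 was past 4-fold, as were 3.27% of genes on that side. The median was -0.12 over the 8 genes and 0.15 over all. Aldh1a1, Cyp26b1 and Crabp2 differed by 0.47, 0.02 and -0.27, and no fold was taken for Aldh1a3, not well above background on either array, or for Cyp26a1, which was well above background outside the gate alone, at -4.33, and whose bound left no fold over 1.

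**Figure D2:**
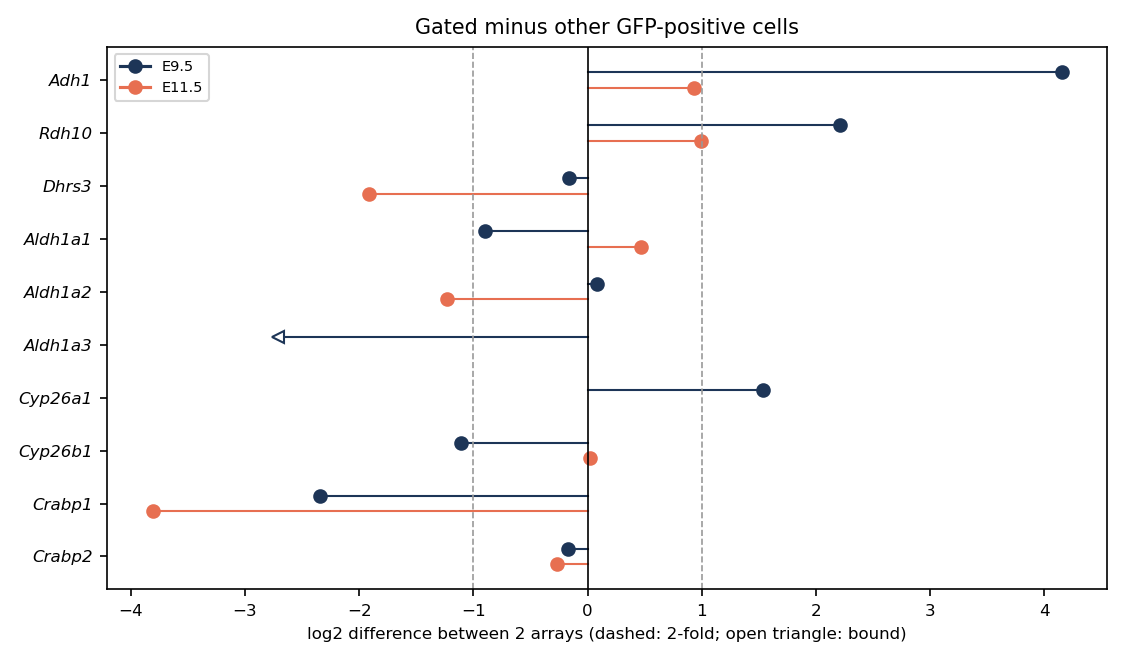
Log2 difference between gated and other GFP-positive cells for each gene at E9.5 (blue) and E11.5 (orange), from 1 array per population, with dashed lines at 2-fold and an open triangle for a bound. Adh1 and Rdh10 lay on the gated side at both stages (4.15 and 2.21, then 0.93 and 0.995) and Crabp1 on the other side at both (-2.34 and -3.81).

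Between E9.5 and E11.5, gated cells held more Dhrs3 and less of several other genes. Of 9 measured, Dhrs3 alone was past 2-fold and higher at E11.5, beside 6.07% of 21319 genes. Adh1 (4.93-fold), Cyp26a1, Crabp1 and Cyp26b1 were past 2-fold and lower, 4 of 9 beside 11.9% of genes. With normexp the log2 differences of Cyp26b1 and Cyp26a1 went from -1.54 to -0.85 and from -2.40 to -0.81, so neither was then past 2-fold. Past 4-fold were Dhrs3, beside 1.29% of genes, and Adh1, Cyp26a1 and Crabp1, beside 3.02%. The median was -0.60 over the 9 genes and -0.03 over all genes. Rdh10 differed by -0.05 between the gated populations. Under quantile normalization all genes split into 1732 higher and 1998 lower in place of 1294 and 2544.

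In the GFP-positive cells outside the gate, Dhrs3, Aldh1a2 and Rdh10 were past 2-fold and higher at E11.5, 3 of 10 beside 6.38% of 23445 genes. Aldh1a3, Cyp26b1 and Aldh1a1 were past 2-fold and lower, 3 of 10 beside 22.2% of genes. Dhrs3 was among the 32 genes as far or farther on the higher side. It was the 1 gene past 4-fold and higher, beside 1.62% of genes, and Aldh1a3 and Cyp26b1 were past 4-fold and lower, beside 3.44%. For Aldh1a3, at least 10.2-fold lower, the log2 difference of -3.35 became -1.21 with normexp. Over all genes the median of this comparison was -0.36, and over the 10 genes -0.53. The scaling moved that median to -0.04 with quantile normalization and to -0.19 with none, and the split over all genes from 1496 higher and 5194 lower to 2606 and 2254 with quantile normalization and to 1966 and 3975 with none. The 6 genes remained past 2-fold in the same direction under both scalings, and Adh1 passed 2-fold without scaling, its log2 difference going from 0.92 to 1.09. The comparison rests on the E9.5 array with the most spots above background. Both stage comparisons also set the caudal part of an embryo against dissected metanephric mesenchyme, so stage and tissue cannot be told apart.

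**Figure D3:**
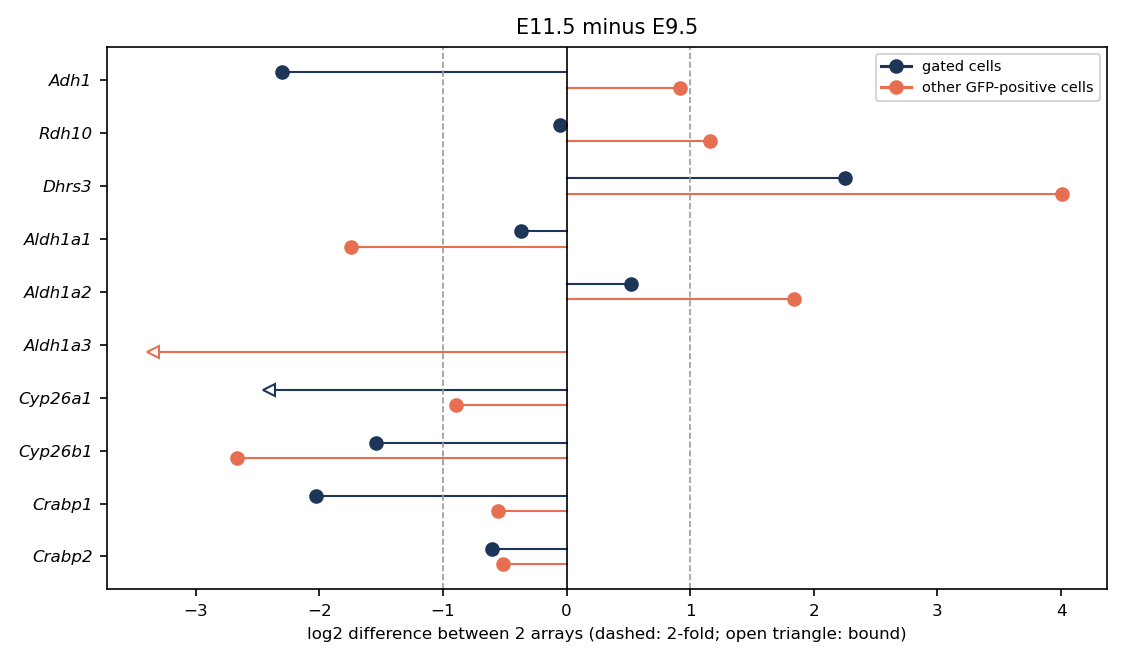
Log2 difference between E11.5 and E9.5 for each gene in gated cells (blue) and in other GFP-positive cells (orange), from 1 array per population, with dashed lines at 2-fold and open triangles for bounds. Dhrs3 was higher at E11.5 in both (2.25 and 4.003), Cyp26b1 was lower in both (-1.54 and -2.67), and Adh1 lay on opposite sides (-2.30 and 0.92).

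At E8.5 the GFP-positive cells held more Crabp1, Rdh10 and Cyp26b1 than the GFP-negative cells. Crabp1 was 3.46-fold higher, Rdh10 2.24-fold and Cyp26b1 at least 4.30-fold, 3 of 7 measured genes beside 7.82% of 17950 genes. None was past 2-fold and lower, beside 6.8% of genes. Cyp26b1 rests on a bound, since its GFP-negative spot was dim: the log2 difference of 2.10 became 0.77 with normexp and 3.23 with the measured signal on both sides. Cyp26b1 was the 1 gene past 4-fold, beside 0.992% of genes. Cyp26a1, Dhrs3, Aldh1a2 and Crabp2 differed by 0.43, 0.33, 0.21 and -0.13. The median over the 7 genes was 0.43, against 0.05 over all. The GFP-negative array had the fewest spots above background, and its 8 blood markers summed to 2000.8 times the 75th percentile, against 9.34 in GFP-positive cells, with 8 and 6 of 8 well above background. The part of blood cells in these differences was not tested.

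At E9.5 both GFP-positive populations can be set against the same GFP-negative array. The gated cells held more Adh1 and Rdh10, 2 of 10 beside 5.72% of 21294 genes, and less Cyp26a1 and Crabp1, 2 of 10 beside 6.4% of genes. Adh1 and Rdh10 were past 4-fold, beside 1.21% of genes. The other GFP-positive cells held more Aldh1a3, Adh1, Rdh10 and Cyp26b1, by 3.89-fold, 3.16-fold, 2.77-fold and 2.71-fold, 4 of 10 beside 8.65% of 23524 genes. They held less Cyp26a1, 1 of 10 beside 5.17% of genes, and this was past 4-fold, beside 1.27% of genes. With normexp the log2 differences of Adh1 and Aldh1a3 went from 1.66 to 0.85 and from 1.96 to 0.90, so neither was then past 2-fold. Quantile normalization turned the split over all genes in this comparison from 2035 higher and 1216 lower to 1465 and 2009. The medians over the 10 genes were -0.10 for gated and 0.75 for other cells, and over all genes 0.01 and 0.14. These 2 comparisons share the GFP-negative array, whose 8 blood markers summed to 1113.5 against 2.60 in gated and 10.3 in other cells, with 8, 4 and 8 of 8 well above background. The neural tube markers summed to 72.3 there, against 4.13 and 7.07, with 8, 7 and 7 of 8 well above background. The part of these cells in the results was not tested.

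Cyp26a1 and Crabp1 were set beside marker lists of neighbouring tissues over the 7 arrays, and followed some of them in part. The 8 markers of tail bud and presomitic mesoderm summed to 16.9 and 16.4 times the 75th percentile in E8.5 cells with and without GFP and to 13.7 in GFP-negative cells of E9.5, with 8 of 8 well above background on each. On the other 4 arrays they summed to between 3.40 and 4.62, with 4 well above background except for 6 in the other GFP-positive cells of E9.5. Of the defining genes, Wnt3a and T (brachyury) were not well above background on these 4 arrays, while Wnt3a was at -1.63, -1.22 and -1.46 on the 3 arrays with high Cyp26a1. The order did not hold inside E9.5, where the gate had more Cyp26a1 than the other GFP-positive cells and a lower marker sum, 3.78 against 4.62. It did not hold between the gates either, where the sum was 3.86 at E11.5 while Cyp26a1 was at -4.31 there against -1.91. A sum is weighted towards its brightest probes, and 4 of the 8 markers were well above background on each gated array. These low sums therefore cannot rank the arrays by their content of tail bud cells. The 8 endoderm markers also had their highest sums, 47.9, 37.9 and 23.2, on the 3 arrays with high Cyp26a1. They summed to 22.0 in the other GFP-positive cells of E9.5, where Cyp26a1 was at -3.44, and to 8.46 in the gate of E9.5. At E11.5 they summed to 2.01 and 0.825 in gated and other cells. The 9 markers of renal stroma and mesenchyme summed to 5.62 and 15.8 in the gates of E11.5 and E9.5, to 19.7 in E8.5 GFP-negative cells, to 33.8 in E8.5 GFP-positive and in E9.5 GFP-negative cells, to 57.8 in the other cells of E9.5 and to 166.9 in those of E11.5. All 9 were well above background except in the E11.5 gate, where 6 were and Pdgfra, Twist1 and Tbx18 were not. Pdgfra is in this list and was used for the sort, so its side of the gate is set by the sort. Crabp1 was lowest where this sum was lowest but was not highest where it was highest: at a sum of 166.9 it was at 3.14, below 3.70 at 57.8 and 3.41 at 33.8. Across the gate, 7 of these 9 markers were past 2-fold and lower in gated cells at E9.5, beside 9.4% of genes, and 9 of 9 at E11.5, beside 9.44%. Crabp1 is also known from neural crest, whose 7 markers had sums that ran otherwise across the gate. They summed to 48.4 and 4.90 in gated and other cells of E11.5, with 4 and 5 well above background. At E9.5 they summed to 10.2, 6.72 and 10.9 in gated, other and GFP-negative cells. At E8.5 they summed to 15.6 and 2.14 in cells with and without GFP. Past 2-fold in the E11.5 gate were 1 higher and 1 lower of 5 measured, beside 10.5% and 9.44% of genes. The part of these cell types in the levels of Cyp26a1 and Crabp1 was not tested.

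**Figure D4:**
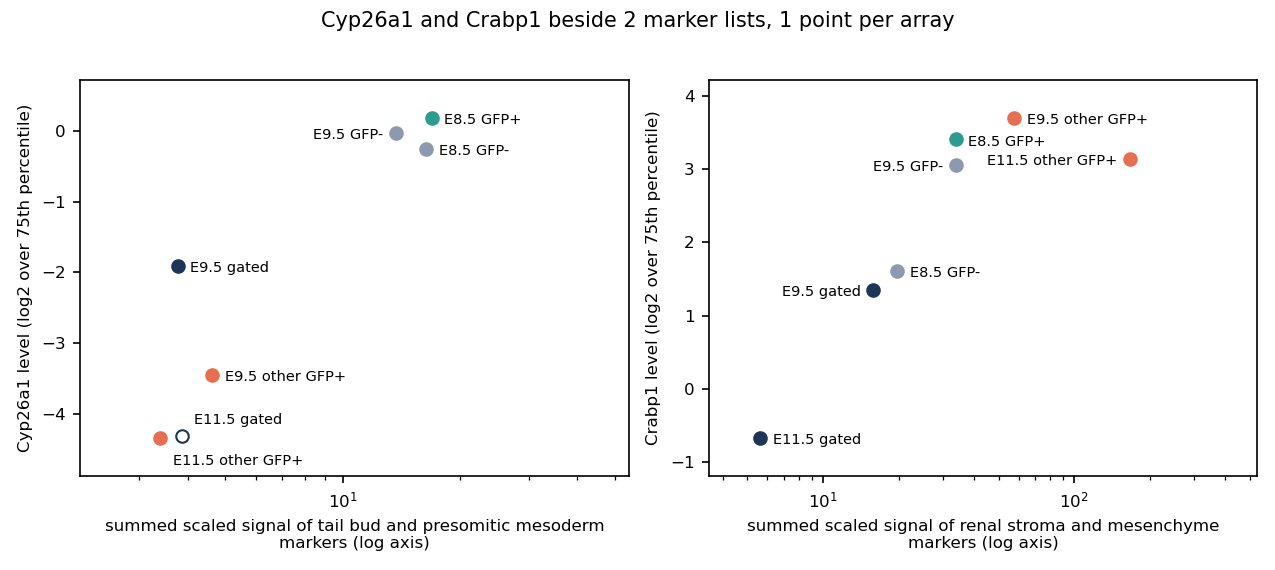
Left, level of Cyp26a1 against the summed signal of 8 tail bud and presomitic markers; right, level of Crabp1 against that of 9 renal stroma and mesenchyme markers; 1 point per array, open where the gene was not well above background, with log horizontal axes in multiples of the 75th percentile. Cyp26a1 was at -0.25 or higher on the 3 arrays where the tail bud sum was 13.7 or more, and Crabp1 was lowest (-0.67) where the stromal sum was 5.62.

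The rest of the pathway was read from 5 lists of 52 genes, all with a probe. Of the nuclear receptors, which carry the signal to DNA, Rarg and Rarb lay on the low side of the gate at both stages. Rarg was at 0.86 and -0.13 in E8.5 cells with and without GFP, at -3.95 (not well above background), 0.02 and -1.13 in the gated, other and GFP-negative E9.5 cells, and at -6.56 (not well above background) and -0.35 in gated and other cells of E11.5. It was at least 15.6-fold lower in the gate than outside it at E9.5 and at least 27.2-fold lower at E11.5, and the E9.5 gate was at least 7.04-fold below the GFP-negative cells. Rarb, a receptor whose gene is itself induced by retinoic acid, was at 0.79, -0.47, 0.91, 2.42, 1.41, 1.27 and 3.11 in the same order. It was 2.85-fold lower in the gate at E9.5 and 3.59-fold lower at E11.5, and highest, as were Aldh1a2 and Dhrs3, in the other GFP-positive cells of E11.5. Rara was 5.17-fold higher in E8.5 cells with GFP than in those without, the co-activator Ncoa1 was at least 4.18-fold higher there, and Rara lay between -0.44 and 0.18 on the later arrays. Of the 11 receptors and co-regulators, all measured at E9.5 and E11.5 across the gate, 1 was higher and 2 were lower at E9.5, beside 5.14% and 9.4% of genes, and none higher and 3 lower at E11.5, beside 10.5% and 9.44%. The median differences of this list were 0.05 and -0.33, against -0.15 and 0.15 over all genes.

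Genes known as targets of retinoic acid were mostly higher in the GFP-positive cells at E8.5. Of 14 measured there, 10 were past 2-fold and higher in GFP-positive cells and 1, Tgm2, was lower, beside 7.82% and 6.8% of genes, with a median of 1.11 against 0.05 over all genes. Among the higher ones, Hoxa4 and Ret rest on bounds, since their GFP-negative spots were dim. None of the 14 was past 4-fold. Markers of lateral plate and heart were higher in the same cells, 8 of 9 past 2-fold, and blood markers lower, 7 of 8, with sums of 9.34 against 2000.8. The lateral plate and heart list summed to 24.9 against 7.94, with 9 and 7 of 9 well above background, and the part of these cells in the target genes' differences was not tested. Meis1 and Meis2, homeobox partners of Hox proteins, differed by 1.98 and 1.39 on the log2 scale. Across the gate, 1 target gene was higher and 2 lower of 14 at E9.5, beside 5.14% and 9.4% of genes, and 3 higher and 4 lower of 13 at E11.5, beside 10.5% and 9.44%, with medians of -0.10 and 0.09. Cdx1, a regulator of Hox genes, was at 2.32, 1.30, -1.72, -1.15, -1.52, -5.19 (not well above background) and -2.56 over the 7 populations. It was at least 10.5-fold lower in the gate of E11.5 than in that of E9.5, and at least 5.89-fold lower in the E11.5 gate than outside it. Ret, the Gdnf receptor of the ureteric bud, was 4.35-fold lower in the E9.5 gate than in GFP-negative cells and at least 4.18-fold lower in the gate at E11.5 than at E9.5. In the other GFP-positive cells Ret was at least 10.1-fold lower at E11.5, and Zfp703 was 6.07-fold higher. Ret is also 1 of the 9 markers of nephric duct and ureteric bud. These summed to 3.78, 3.96 and 15 in the gated, other and GFP-negative E9.5 cells. At E11.5 they summed to 2.05 and 2.47 in gated and other cells. The part of duct cells in the differences of Ret was not tested. Between stages in gated cells, 2 of 14 target genes were higher and 5 lower, beside 6.07% and 11.9% of genes (median 0.03, against -0.03 over all genes), while Dhrs3 was higher.

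**Figure D5:**
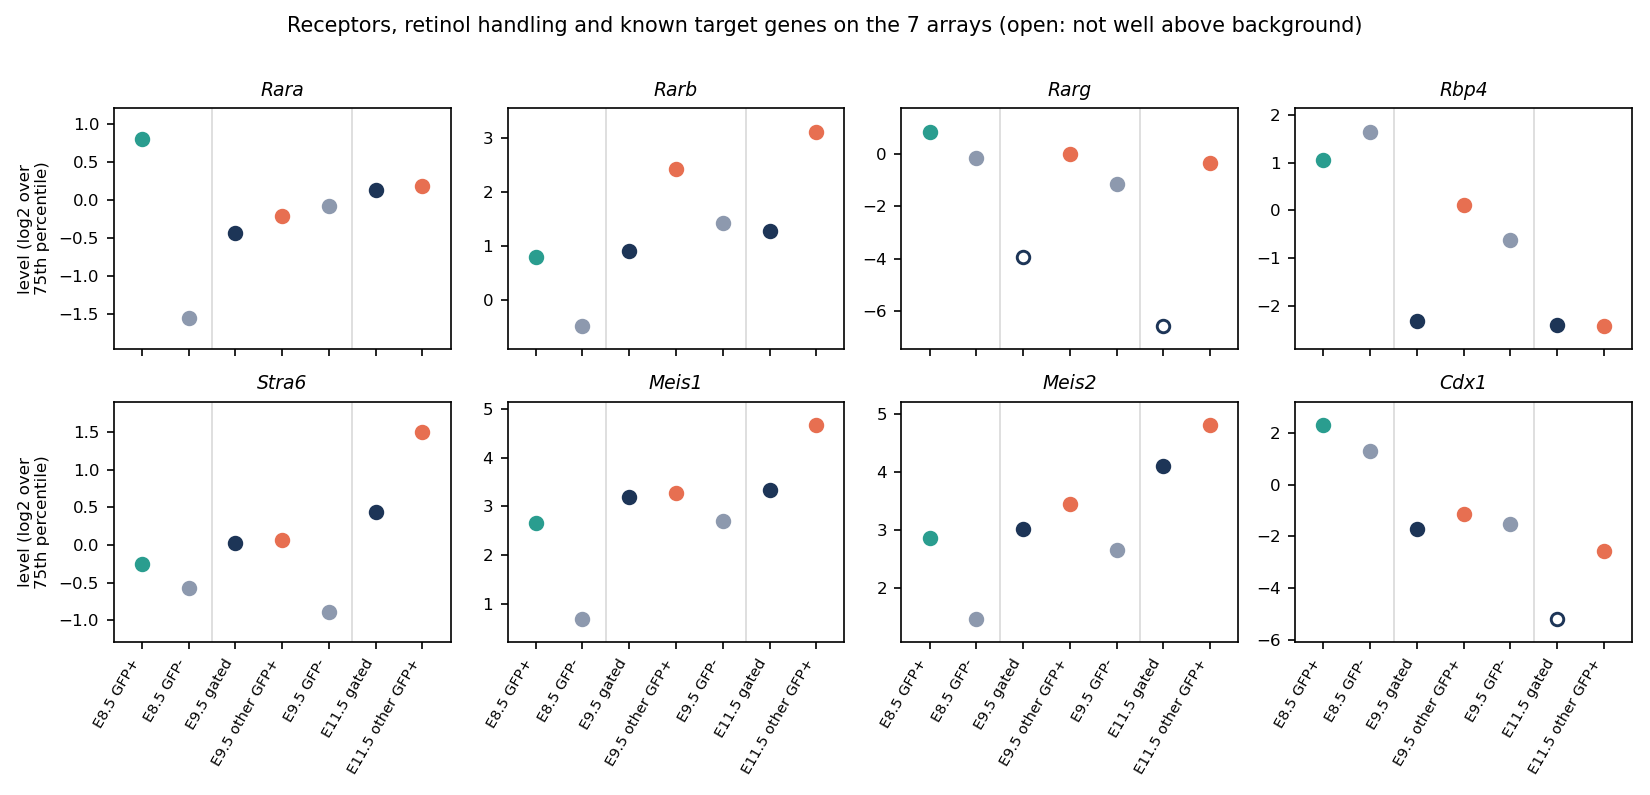
Level (log2 over the 75th percentile of the array) of 3 retinoic acid receptors, 2 retinol-handling genes and 3 known target genes in the 7 populations, 1 point per array, open where not well above background. Rarg was open in both gated populations (-3.95 and -6.56), and Rarb and Meis2 were highest in the other GFP-positive cells of E11.5 (3.11 and 4.81).

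The genes most like each member were taken as the 3 with the highest Pearson correlation over the 7 arrays, among 4204 genes outside the members that were well above background on at least 4 arrays and had a range of at least 2 log2 units. With 7 arrays that share amplification and scaling, such values are a description. Closest to Adh1 were Spaca6, Ppargc1a and Palm3 (r of 0.96, 0.96 and 0.95), all highest in the E9.5 gate. Rdh10 was closest to Ntsr1, Ust and Ak1 (0.96, 0.96 and 0.93). Dhrs3 was closest to Copz2, S100a11 and App (0.99, 0.98 and 0.98). Aldh1a3 was closest to Slc6a17 and 6430601O08Rik (0.97 and 0.96). Cyp26a1 was closest to Sp5, Gmfg and Nckap1l (all 0.96). Cyp26b1 was closest to Ap1s2, Fndc3c1 and Fam149a (0.96, 0.96 and 0.94). Crabp1 was closest to Arhgap9, Ifitm3 and Twist1 (all 0.98). Crabp2 was closest to Tert, Neu2 and 2810039B14Rik (0.96, 0.95 and 0.93). Aldh1a1 and Aldh1a2 varied over less than 2 log2 units and were not entered. Among the 8 members entered, Adh1 and Rdh10 were most alike (r of 0.83), and Dhrs3 and Cyp26a1 most opposed (-0.76).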

How the data were processed

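RNA of 7 sorted populations was hybridised to 1 single-colour Agilent mouse array each. Per the submitters' processing notes, the authors obtained spot intensities with Agilent Feature Extraction (version 10.7.3.1); per the file headers, the deposited intensity is background-subtracted, detrended and linear, with no scaling between arrays. The deposited value table holds the same intensity, all 62976 values per array being equal, with column medians from 30.6 to 51.3. Flagged spots (127 to 160 of 59305 non-control spots per array) were left out, though no member's spot was among them, and no spot was saturated. Levels were log2 intensities minus the 75th percentile, with no pseudocount. Spots of a probe were averaged, a gene stood by its probe with the highest mean, and 26425 of 55681 probes took their symbol from RefSeq while 20323 had no gene name. A gene was measured in a comparison where at least 1 array was well above background and a bound, if needed, left a fold over 1. With 1 array per group no test was possible, and precision is limited by the number of arrays. Arrays correlated at 0.923 to 0.979. Alternatives were normexp (offset 50) and quantile normalization in limma 3.58.1, no scaling, other treatments of dim or flagged spots and of several probes, and a 4-fold threshold. The steps were tested on simulated data.

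The text names all 10 members, pathway genes past 4-fold, the 3 nearest patterns and examples chosen after their values were seen; a few genes this rule would name are left out of the text. The members and all lists were chosen with earlier results of these data known. Probe positions are those of the array files (mm9), and promoters are from RefSeq (GRCm38.p6).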

Additional observations from a re-analysis of the deposited data

How the results depend on the processing

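Counts of these genes past 2-fold were recomputed under each alternative. Past 4-fold they were 1 in place of 3 for the E8.5 populations, 2 in place of 4 for E9.5 gated and 1 in place of 5 for E9.5 other against GFP-negative cells, 1 in place of 3 across the E11.5 gate and 3 in place of 6 for other GFP-positive cells between stages. Across the E9.5 gate 2 were higher and 2 lower in place of 3 and 3. For gated cells between stages 1 was higher and 3 lower in place of 1 and 4. With normexp they were 3 in place of 5 for E9.5 other against GFP-negative cells. They were also 3 in place of 5 for gated cells between stages. Cyp26b1 also fell below 2-fold with normexp at E8.5, Cyp26a1 and Cyp26b1 across the E9.5 gate and Aldh1a1 in other GFP-positive cells between stages. Normexp was run with an offset of 50 added to each signal, which shrinks folds between dim spots. The part of the offset in these counts was not tested. Of 64 differences of single genes, none past 2-fold changed sign under the alternatives run; 8 crossed 2-fold with normexp, 1 without scaling and none with quantile normalization. With normexp all genes past 2-fold numbered, higher and lower, 598 and 521 at E8.5 (1404 and 1221 in the text's setting), 346 and 321 for the E9.5 gate, 406 and 472 and then 290 and 391 for E9.5 gated and other against GFP-negative cells, 741 and 830 across the E11.5 gate, and 460 and 562 and then 732 and 1002 for gated and other cells between stages. Without scaling the split was 1820 and 1045 at E8.5, 831 and 1869 for E9.5 gated and 1248 and 1746 for E9.5 other against GFP-negative cells, and 1473 and 2702 across the E11.5 gate. No paired analysis was possible because each group had 1 array and the labels give no replicate numbers. Signal over background limits Aldh1a1, Aldh1a3 and Cyp26a1, whose folds at E11.5 are bounds, missing or near background.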

Other observations

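Genes that move and store retinol, and further enzymes of the same families, had patterns of their own. Rbp4, which carries retinol in the blood, was at 1.06 and 1.65 in E8.5 cells with and without GFP, at -2.32, 0.10 and -0.63 in the gated, other and GFP-negative E9.5 cells, and at -2.39 and -2.41 in gated and other cells of E11.5. It was 5.37-fold lower in the gate than outside it at E9.5, and 5.72-fold lower at E11.5 than at E9.5 in the cells outside. Its partner transthyretin, Ttr, was at -1.29 and -0.84 in the E8.5 populations and well above background on 1 later array, that of the other GFP-positive cells of E9.5, at -3.52. The endoderm markers, 8 in all, summed to 47.9 and 37.9 times the 75th percentile at E8.5, to 8.46, 22.0 and 23.2 in the gated, other and GFP-negative E9.5 cells, and to 2.01 and 0.825 in gated and other cells of E11.5, with 8, 8, 5, 8, 8, 4 and 4 well above background. Their part in the levels of Rbp4 and Ttr was not tested. The retinol receptor Stra6 was highest in the other GFP-positive cells of E11.5 and lay between -0.89 and 0.44 on the other arrays.

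Among other oxidoreductases, Adh7, a retinol-oxidising relative of Adh1, was highest in the same population as Adh1, the E9.5 gate, at -2.12. It was 3.44-fold above the other GFP-positive cells and at least 4.97-fold above the GFP-negative cells, and was well above background in 3 of the 7 populations. Adh4 was highest in the other GFP-positive cells of E9.5, at -2.03, 4.11-fold above the GFP-negative cells, and 4.53-fold lower at E11.5. Dhrs7 was lower in the gate at both stages, at -0.54 against 0.86 and at -1.90 against 0.37, the latter a 4.84-fold difference. Cyp2s1, which can oxidise retinoic acid, was at -1.78 and -3.18 in gated and other cells of E9.5 and at -5.03 (not well above background) and -1.61 at E11.5, so the side of the gate with more of it differed between the stages; with 1 array per population that difference was not tested. In gated cells it was at least 9.52-fold lower at E11.5 than at E9.5. Of the 15 other retinol and retinaldehyde oxidoreductases, 14 were measured across the gate at each stage: 2 were higher and 3 lower past 2-fold at E9.5, beside 5.14% and 9.4% of all measured genes, and 2 higher and 2 lower at E11.5, beside 10.5% and 9.44%, with medians of -0.16 and -0.04 against -0.15 and 0.15 over all genes. Beside the same shares, of the 8 genes of retinol uptake and storage, 1 of 7 measured was higher and 2 were lower in the gate at E9.5, and none of 4 was higher and 1 lower at E11.5, with medians of 0.81 and -0.15. Beside them too, of the other clearance and carrier genes, Cyp26c1, Cyp2s1 and Fabp5, 1 was higher and none lower in the gate at E9.5, and 1 was higher and 1 lower at E11.5. The median of 0.81 for retinol uptake and storage at E9.5 is the value of Lrat and rests on a bound near background. Lrat was at -3.78 in the gate and -4.59 (not well above background) outside it, and 2 of those 7 values were bounds.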
